A study of Mus musculus with 12 samples.

Results

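Sheets of cultured mouse colon epithelium were compared between day 5 and day 4 of growth, in 6 of the 12 RNA-seq libraries of the study. The 3 libraries of each day were taken by their labels. Per the labels, the tissue of origin was the colon of a wild-type mouse 6 to 10 weeks old. Cells of isolated crypts were grown first as monolayers on collagen and then on scaffolds cross-linked in a gradient, and each whole monolayer was lysed. Both days share this origin, and the labels name no strain, allele or added agent. The labels give 1 transepithelial resistance for each day, 623 ± 15 ohm cm2 at day 4 and 407 ± 53 ohm cm2 at day 5, with an error of unnamed type, so no library has a resistance of its own. No label states whether the 3 libraries of a day come from separate cultures, so the p-values rest on a spread between libraries that may be technical. The other 6 libraries, of crypts and of day 3 monolayers, serve only to place levels.

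In the colon, stem and progenitor cells divide near the base of the crypt, and their daughters leave the cell cycle as they move towards the surface. There, absorptive colonocytes take up salt, water and short-chain fatty acids, and goblet cells secrete mucus. Tight junctions seal the space between neighbouring cells, and transepithelial resistance measures how strongly the cell sheet opposes the passage of ions. Epithelial cells that cover a bare matrix divide and express genes also known from wound repair and fetal gut.

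Levels are CPM, the usual library-size normalised counts, scaled here with TMM factors, and changes are log2 fold changes of day 5 over day 4 ± SE. A gene was called when the edgeR quasi-likelihood F test gave a Benjamini-Hochberg adjusted p under 0.05. The SE was derived from that test, as the size of the change over the square root of its F statistic. Libraries held 5456913 to 12227445 counts in genes. Day 5 replicate 1 stood apart from the other 5 libraries. It had a count in 12293 genes, against 13720 to 14088 elsewhere, and lay at 77 on the first principal component (54.7% of the variance), where day 5 replicates 2 and 3 lay at 3.4 and -0.36 and day 4 libraries between -31.3 and -20.4. The nuclear RNA Malat1 took 7.4 to 8.05% of gene counts at day 4 and 9.3 to 12.2% at day 5, and reads in no gene were 38.7 to 40.3% and 40.8 to 42.8% of reads counted. Epithelial identity genes summed to 12194 to 12426 CPM at day 4 and 10547 to 11491 CPM at day 5. Of the 20 leukocyte markers 10 were at 0 in all 6 libraries, the list summed to 34.9 to 51.7 CPM at day 4 and 24.5 to 27.1 CPM at day 5, and Cd68, a lysosomal protein gene, made up most of it. Fibroblast and smooth muscle markers summed to 2.1 to 5.2 CPM, and red blood cell markers were at 0.

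Between the 2 days 1069 of 11763 tested genes were called (9.09%), 499 higher (4.24%) and 570 lower (4.85%) at day 5. Most changes were small: the median was 0.59 among genes called higher and -0.68 among those called lower, and -0.01 over all genes tested. Changes of at least 4-fold were called for 26 genes that rose and 94 that fell, and 58 of the latter (61.7%) belong to the mitosis list. Of the calls, 494 of 499 and 569 of 570 had no overlap between the libraries of the 2 days, where such separation was seen in 14% (higher) and 14.8% (lower) of all genes tested. The counts fell to 230 higher and 281 lower without day 4 replicate 2, to 252 and 310 without day 4 replicate 3 and to 303 and 350 without day 5 replicate 2, and rose to 649 and 788 without day 5 replicate 1. The gene lists were chosen with earlier results of these data known, so their shares of called genes are a description. List counts of 4 or fewer calls rest on few genes, and many of them moved by over 1.5 times when day 4 replicate 2, day 4 replicate 3 or day 5 replicate 2 was left out.

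**Figure D1:**
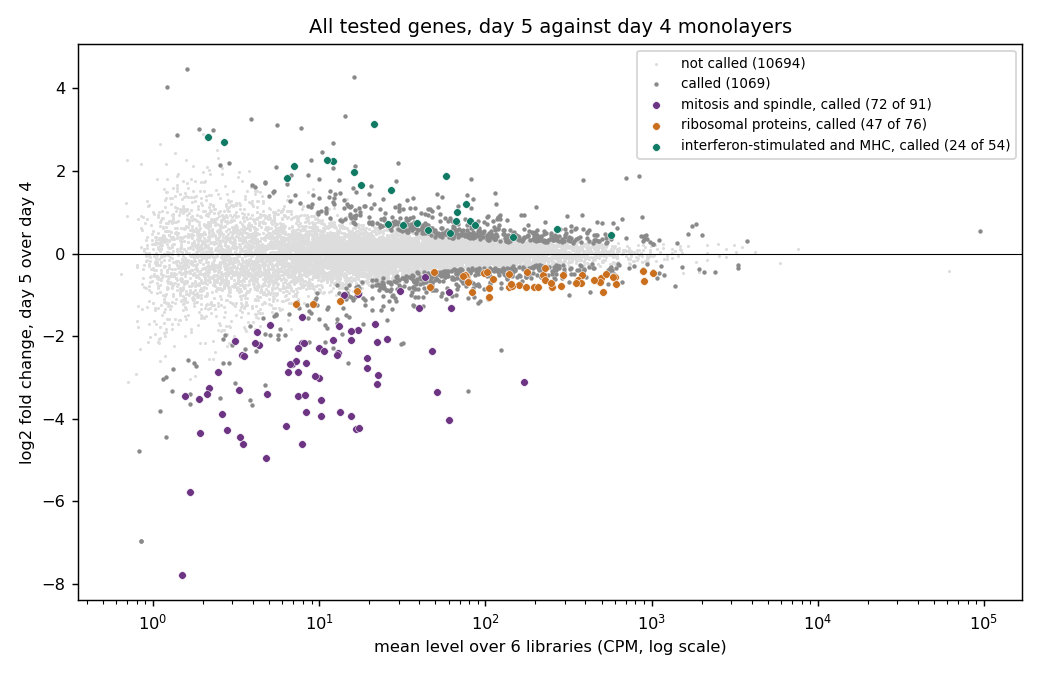
Log2 fold change of day 5 over day 4 (vertical axis) against the mean level over 6 libraries in CPM (log scale) for 11763 tested genes. Called mitosis genes (72 of 91 tested) lie below 0 and reach the largest decreases, called ribosomal protein genes (47 of 76) form a band of small decreases at high level, and called interferon-stimulated and MHC genes (24 of 54) lie above 0.

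**Figure D2:**
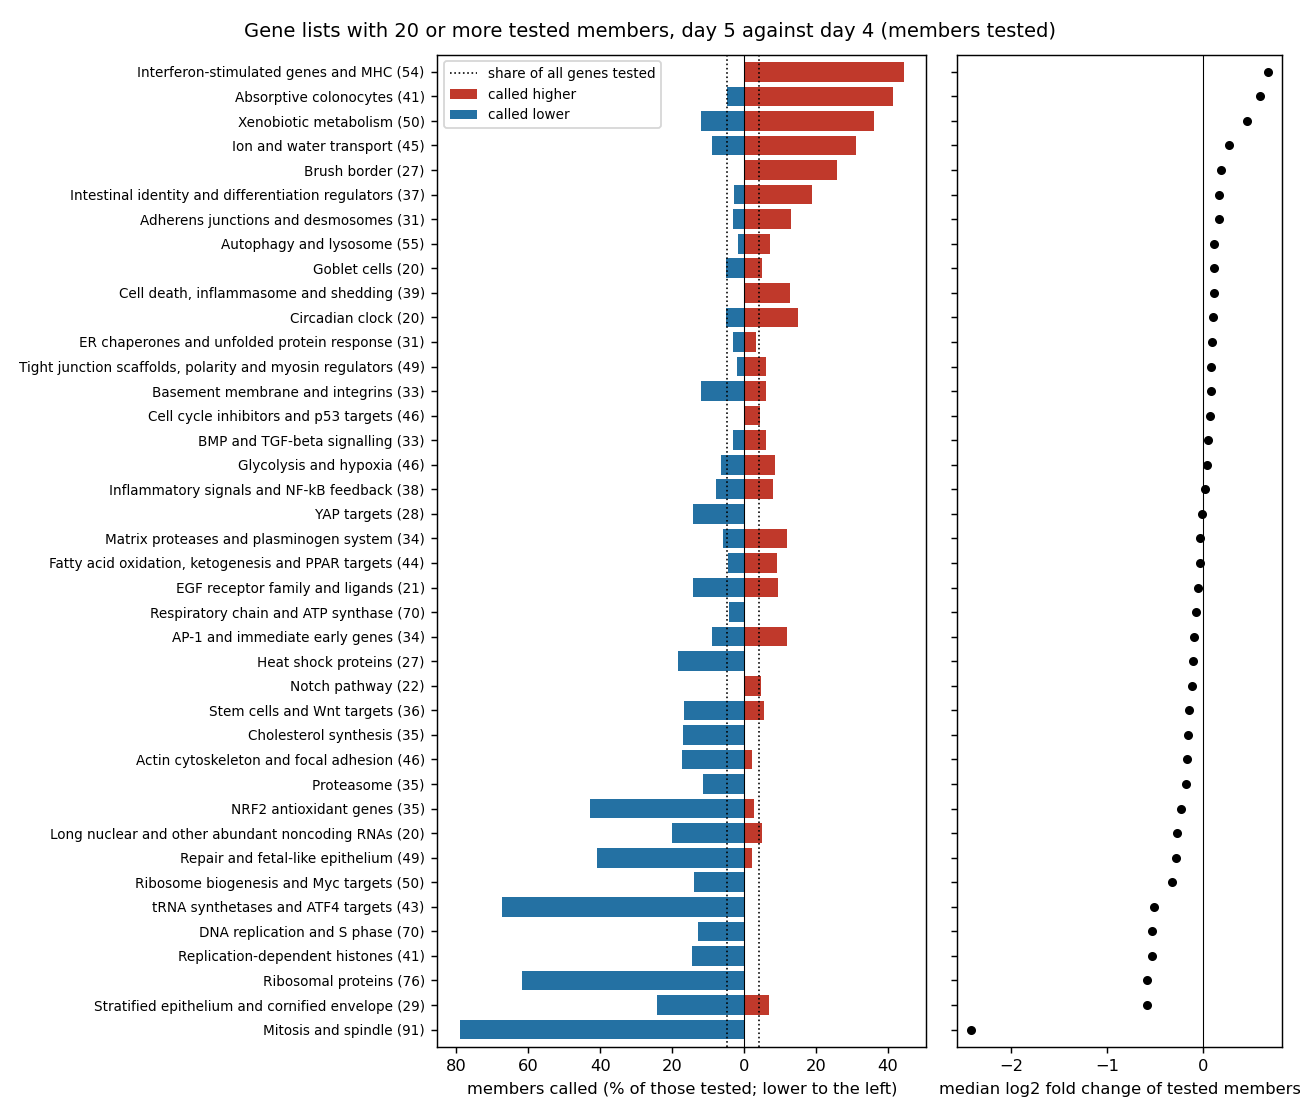
Share of tested members called higher (red) or lower (blue) at day 5 and median log2 fold change, for gene lists with 20 or more tested members (number in parentheses); dotted lines mark the shares of all genes tested, 4.24% higher and 4.85% lower. Mitosis genes stand at the bottom with a median of -2.41, and interferon-stimulated genes and absorptive colonocyte genes at the top with 0.67 and 0.59.

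Genes of mitosis fell further than any other list with 20 or more tested members. Of 91 tested, 72 were lower and 0 higher, with a median of -2.41, and their summed level was 1795, 2461 and 2415 CPM in the day 4 libraries and 702, 616 and 660 CPM at day 5. Mki67, a chromosome surface protein gene expressed in cycling cells, was at 225, 348 and 349 CPM at day 4 and 39.2, 30.0 and 39.3 CPM at day 5 (-3.10 ± 0.16, edgeR adjusted p = 1.49e-08). Every day 5 library lay below every day 4 library, 8.6-fold lower on average. Top2a, the topoisomerase that untangles replicated DNA, was at 74.9, 102 and 103 CPM at day 4 and 8.74, 9.83 and 8.69 CPM at day 5 (-3.34 ± 0.17, edgeR adjusted p = 9.33e-09). Cenpf, a kinetochore protein gene, was at 93.3, 131 and 118 CPM at day 4 and 4.86, 6.47 and 9.53 CPM at day 5 (-4.04 ± 0.20, edgeR adjusted p = 9.33e-09). The 3 genes were lower in all day 5 libraries, and the day 5 libraries differed less from one another than from those of day 4. In bulk RNA, fewer cycling cells and less of these mRNAs per cell cannot be told apart.

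Other mitotic genes with the largest decreases covered entry into mitosis, the spindle and cytokinesis. Ccna2 encodes a cyclin of S phase and mitosis and was at 22.6, 29.4 and 35.5 CPM at day 4 and 0.777, 1.38 and 3.68 CPM at day 5 (-3.93 ± 0.37, edgeR adjusted p = 1.21e-05). Ccnb1, the mitotic cyclin gene, had 292 counts over the 3 day 4 libraries and 6 over the 3 of day 5, at 7.46, 11.8 and 8.31 CPM at day 4 and 0.194, 0 and 0.836 CPM at day 5 (-4.96 ± 0.71, edgeR adjusted p = 0.000352). Plk1, a kinase gene of mitotic entry, was at 11.6, 18.4 and 16.6 CPM at day 4 and 0.194, 1.21 and 1.67 CPM at day 5 (-3.83 ± 0.44, edgeR adjusted p = 5.44e-05). All 3 were below 4 CPM in every day 5 library, where a floor of 3 counts corresponds to 0.256 to 0.55 CPM. Kif11, the spindle motor, was at 8.04, 23 and 26.6 CPM at day 4 and 1.75, 1.21 and 0.836 CPM at day 5 (-3.93 ± 0.47, edgeR adjusted p = 7.08e-05). Nusap1, a microtubule-binding protein gene, was at 26.5, 35 and 32.7 CPM at day 4 and 3.89, 0.345 and 1.67 CPM at day 5 (-4.24 ± 0.45, edgeR adjusted p = 2.62e-05). Hmmr, a spindle-associated protein gene, was at 24, 40.6 and 34.3 CPM at day 4 and 0, 2.16 and 2.67 CPM at day 5 (-4.23 ± 0.43, edgeR adjusted p = 2.13e-05), with no count in day 5 replicate 1. Prc1, which bundles the central spindle in cytokinesis, was at 28.8, 37.6 and 32.5 CPM at day 4 and 6.61, 5.52 and 5.18 CPM at day 5 (-2.52 ± 0.22, edgeR adjusted p = 5.08e-06). Dlgap5, Ckap2l, Cenpa, Aspm, Nek2 and Ckap2 also fell, by between -3.84 and -2.97 on the log2 scale. Cdk1, the kinase partner of the mitotic cyclins, was called with less margin, at 11.9, 18.6 and 20.1 CPM at day 4 and 0.389, 6.81 and 2.01 CPM at day 5 (-2.28 ± 0.51, edgeR adjusted p = 0.00923). Its call was lost without day 4 replicate 2 or 3 (edgeR adjusted p = 0.0623 and 0.0581) and with DESeq2 (0.0899).

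The promoters of the 4 mitosis genes with the lowest p show 2 short motifs that are known from genes expressed late in the cell cycle. The cell cycle homology element (TTTGAA or TTCGAA) is bound by the DREAM and MuvB complexes, and the CCAAT box (CCAAT) by NF-Y. The windows are from RefSeq on GRCm38.p6 and run from 250 bases before the annotated start to 10 bases from it, with matches of either motif on either strand in capitals. They lie at chr1:189688077-189688336 (Cenpf, minus strand), chr11:99024180-99024439 (Top2a, minus), chr7:135716370-135716629 (Mki67, minus) and chr7:80294201-80294460 (Prc1, plus, the first of 2 windows listed).
Cenpf: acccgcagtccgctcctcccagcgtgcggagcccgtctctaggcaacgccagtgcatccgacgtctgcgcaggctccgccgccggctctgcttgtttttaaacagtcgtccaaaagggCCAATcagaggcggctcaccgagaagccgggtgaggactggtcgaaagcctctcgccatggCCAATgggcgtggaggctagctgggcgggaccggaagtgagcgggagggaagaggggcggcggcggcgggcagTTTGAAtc
Top2a: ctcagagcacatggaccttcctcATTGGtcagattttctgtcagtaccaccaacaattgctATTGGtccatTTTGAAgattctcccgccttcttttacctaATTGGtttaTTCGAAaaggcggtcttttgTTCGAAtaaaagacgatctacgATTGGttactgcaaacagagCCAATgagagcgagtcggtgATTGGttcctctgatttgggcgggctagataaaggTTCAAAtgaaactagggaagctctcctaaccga
Mki67: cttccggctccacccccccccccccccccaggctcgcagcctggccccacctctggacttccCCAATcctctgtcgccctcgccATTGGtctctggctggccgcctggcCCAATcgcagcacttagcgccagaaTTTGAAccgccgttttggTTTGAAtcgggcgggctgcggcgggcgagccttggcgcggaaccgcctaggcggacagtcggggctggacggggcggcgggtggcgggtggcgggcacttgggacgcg
Prc1: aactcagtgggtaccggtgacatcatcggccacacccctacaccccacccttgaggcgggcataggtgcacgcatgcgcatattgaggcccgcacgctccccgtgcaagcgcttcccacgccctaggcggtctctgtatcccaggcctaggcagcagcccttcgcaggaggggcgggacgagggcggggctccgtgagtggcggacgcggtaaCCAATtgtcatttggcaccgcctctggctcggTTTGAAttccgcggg

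In windows of 300 bases, 250 before the start and 50 from it, the homology element was found in 46 of the 58 called mitosis genes with a window (79.3%) and in 1500 of all 9281 tested genes with a window (16.2%). The CCAAT box was in 75.9% against 42.9%, and both motifs together in 67.2% against 6.9%. Over all tested mitosis genes with a window, called or not, the 3 shares were 74.7%, 73.3% and 62.7%. The matches thus go with membership of the list. The tested set contains the called members, so these shares do not compare called members with those not called. In the Cenpf window the homology element begins 2 bases past the start, while Mki67 holds it 116 and 98 bases and Top2a as far as 179 bases before the start. Such matches are letters in a window and are not shown to be bound.

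Genes of DNA replication moved less than those of mitosis. Of 70 tested, 9 were lower (12.9%, against 4.85% of all genes tested) and 0 higher, with a median of -0.54. The sum of the list went from 723, 841 and 818 CPM to 616, 607 and 612 CPM. The lower members numbered 4 when day 4 replicate 2 was left out, 5 without day 5 replicate 2 and 14 without day 5 replicate 1, with 15 to 18 in the fits with more libraries, no filter or limma voom weights. Clspn, a replication checkpoint gene, was at 6.38, 6.14 and 8.54 CPM at day 4 and 0.389, 0.431 and 1 CPM at day 5 (-3.54 ± 0.55, edgeR adjusted p = 0.000661). Uhrf1, which passes DNA methylation on to new strands, was at 12, 15.1 and 11.9 CPM at day 4 and 2.33, 4.49 and 1.34 CPM at day 5 (-2.17 ± 0.38, edgeR adjusted p = 0.00183). Tk1, a thymidine salvage kinase, was at 10.4, 13.7 and 13.8 CPM at day 4 and 4.47, 3.19 and 5.52 CPM at day 5 (-1.55 ± 0.32, edgeR adjusted p = 0.00528). Each was lower in all 3 day 5 libraries. Pcna, the sliding clamp of replication, was at 36.8, 40.3 and 37 CPM at day 4 and 48.2, 42.4 and 45.5 CPM at day 5 and was not called (0.25 ± 0.13, edgeR adjusted p = 0.274), and its 3 day 5 values were the higher ones. The helicase gene Mcm2 was at 7.3, 13.2 and 8.78 CPM at day 4 and 2.72, 5.61 and 6.02 CPM at day 5, and the libraries of the 2 days did not overlap, but it was not called (-1.003 ± 0.37, edgeR adjusted p = 0.108), although it was with 9 monolayer libraries in the fit (0.0443). E2F motifs (TTTCGCGC, TTTGGCGC or TTTCCCGC, either strand) were in 40.4% of the tested replication genes with a window and in 4.22% of all genes. Of 41 replication-dependent histone genes 6 were lower and 0 higher (median -0.54), among them the linker histone gene Hist1h1b at 8.21, 9.93 and 11.4 CPM at day 4 and 2.33, 1.64 and 3.68 CPM at day 5 (-1.98 ± 0.40, edgeR adjusted p = 0.00446). Histone genes are near-identical copies, so the counts of single members are uncertain. The number called lower was 2 without day 4 replicate 2, 1 without day 4 replicate 3 or day 5 replicate 2, and 1 with the length trend removed.

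Cell cycle inhibitors and p53 targets showed little change. Of 46 tested, 2 were higher (4.35%, near the 4.24% of all genes) and 0 lower, and the median was 0.07. The inhibitor genes Cdkn1a, Cdkn1b and Cdkn2b missed the threshold (0.20 ± 0.09, 0.29 ± 0.11 and 0.30 ± 0.09, edgeR adjusted p = 0.174, 0.0969 and 0.0567). Cdkn2b, at 140.2, 126 and 127 CPM at day 4 and 172, 146 and 169 CPM at day 5, was called in other fits, among them DESeq2 (adjusted p = 0.0363), limma voom weights (0.0315) and the fit without day 5 replicate 2 (0.048). The 2 called were Trp53inp2, of autophagy and p53 responses, at 191, 173 and 182 CPM at day 4 and 289, 259 and 249 CPM at day 5 (0.55 ± 0.09, edgeR adjusted p = 0.000661), and Mxd1, a repressor that competes with Myc for its partner, at 305, 274 and 246 CPM at day 4 and 397, 331 and 367 CPM at day 5 (0.41 ± 0.09, edgeR adjusted p = 0.0109). The Mxd1 call was lost without day 4 replicate 2 or 3 (edgeR adjusted p = 0.0717 and 0.0953). Myc itself, a driver of growth, was at 138, 167 and 173 CPM at day 4 and 77.7, 84.7 and 106 CPM at day 5 (-0.83 ± 0.12, edgeR adjusted p = 0.000415). Of 36 stem cell and Wnt genes 6 were lower and 2 higher (median -0.15). Cd44, an adhesion receptor, was at 313, 517 and 435 CPM at day 4 and 196, 197 and 241 CPM at day 5 (-0.996 ± 0.14, edgeR adjusted p = 0.00031). Lgr5, the receptor of crypt base stem cells, was at 3.07, 5.78 and 4.21 CPM at day 4 and 2.91, 1.21 and 1.5 CPM at day 5 and was not called (-1.26 ± 0.56, edgeR adjusted p = 0.186), although it was without day 5 replicate 1 (0.0415). Axin2, a feedback gene of Wnt signalling, was not called either (-0.34 ± 0.13, edgeR adjusted p = 0.136), but was with the replicate block (0.0175), with no filter on low counts (0.0133) and without day 4 replicate 1 (0.0447).

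**Figure D3:**
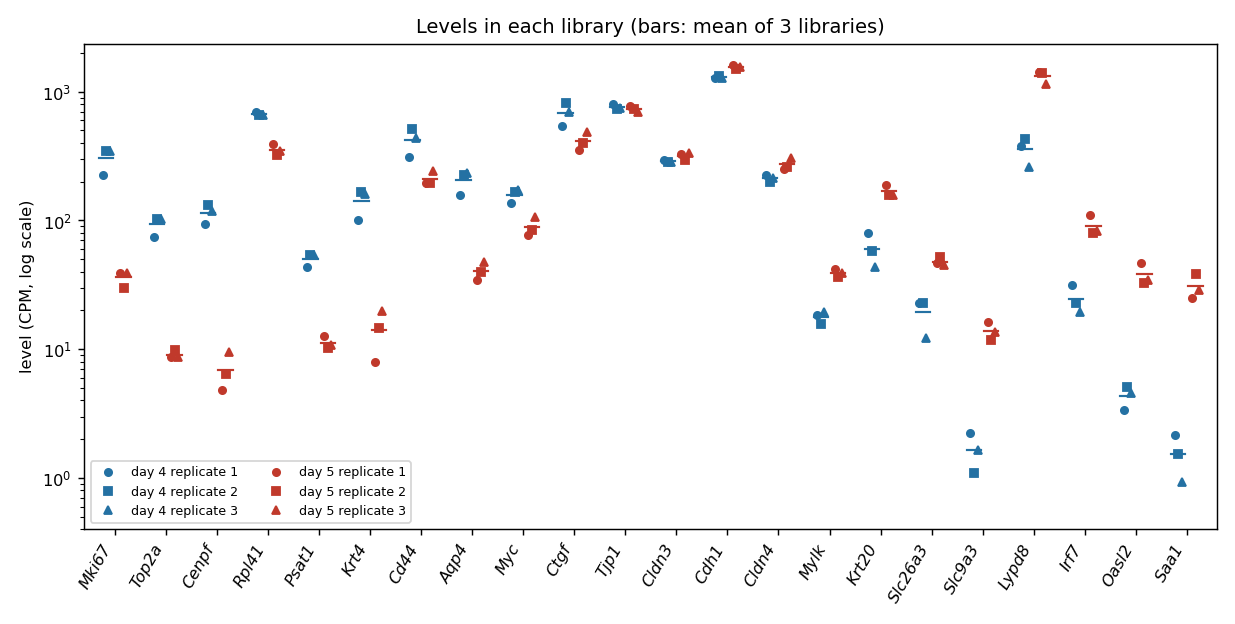
Level in CPM (log scale) of 22 genes in the 3 day 4 (blue) and 3 day 5 libraries (red); short bars are means of 3 libraries. Mki67, Top2a and Cenpf lie far lower at day 5, Tjp1 and Cldn3 overlap between days, and Slc9a3, Oasl2 and Saa1 lie far higher at day 5.

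Most ribosomal protein genes fell. Of 76 tested, 47 were lower and 0 higher, with a median of -0.58, and they summed to 16146, 15827 and 16363 CPM at day 4 and 10789, 9848 and 10964 CPM at day 5. Rpl41 of the large subunit was at 696, 659 and 659 CPM at day 4 and 390.2, 323 and 347 CPM at day 5 (-0.93 ± 0.08, edgeR adjusted p = 7.29e-06). Rps21 of the small subunit was at 133, 136 and 153 CPM at day 4 and 68.4, 64.3 and 72.4 CPM at day 5 (-1.05 ± 0.10, edgeR adjusted p = 1.43e-05). Rps24 was at 379.6, 357 and 347 CPM at day 4 and 212, 202 and 217 CPM at day 5 (-0.78 ± 0.08, edgeR adjusted p = 1.52e-05). The 3 levels were between 1.72- and 2.06-fold lower on average, with narrow spread within each day. Npm1, a nucleolar chaperone gene of ribosome assembly, was at 539, 565 and 576 CPM at day 4 and 332, 273 and 285 CPM at day 5 (-0.92 ± 0.08, edgeR adjusted p = 9.18e-06), but only 7 of 50 ribosome biogenesis and Myc target genes were lower and 0 higher (median -0.33), and 2 without day 4 replicate 2. Reads without a unique alignment were not counted, so genes with processed pseudogenes, as ribosomal protein genes have, are uncertain in level. Such reads were 16.9 to 17.7% of reads counted at day 4 and 14.2 to 16.3% at day 5.

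Changes also ran with transcript length. Across 11679 tested genes with a length, the median change was -0.18 in the shortest of 10 equal bins and 0.08 in the longest, with Spearman's rho of 0.163 across genes, which are not independent. Median deviations from the day 4 mean in the shortest bin were -0.16, -0.19 and -0.15 in day 5 replicates 1 to 3 and within 0.01 of 0 at day 4. Ribosomal protein genes are short. The shortest bin without them (1116 genes) had a median of -0.17, with 7.71% called lower, against 61.8% of ribosomal protein genes. With the length trend removed from each library, an alternative added after the data were seen, 37 of the 76 were called lower, with a median of -0.45. How much of the ribosomal protein decrease goes with length was not tested beyond this.

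**Figure D4:**
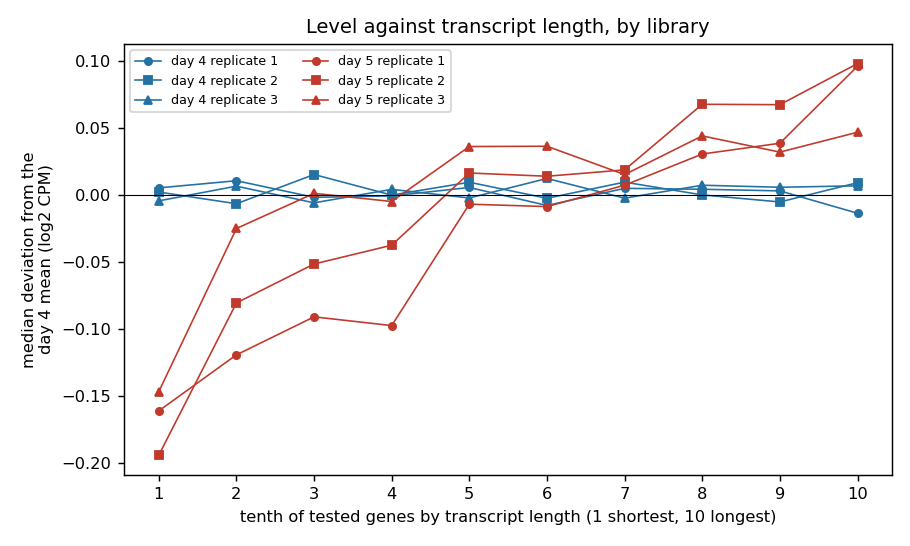
Median deviation from the day 4 mean in log2 CPM (vertical axis) for 10 equal bins of tested genes ordered by transcript length, by library. All 3 day 5 libraries (red) rise from between -0.19 and -0.15 in the shortest bin to between 0.05 and 0.1 in the longest, and day 4 libraries (blue) stay near 0.

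Most genes that are tRNA synthetases or ATF4 targets, counted here as 1 list, fell as well. Of 43 tRNA synthetase and ATF4 target genes 29 were lower and 0 higher (median -0.51), and they summed to 4847, 5045 and 5122 CPM at day 4 and 3952, 3619 and 3897 CPM at day 5. ATF4 is the transcription factor that raises amino acid synthesis and uptake under starvation. Psat1 of serine synthesis was at 43.7, 54.2 and 53.8 CPM at day 4 and 12.6, 10.2 and 10.7 CPM at day 5 (-2.19 ± 0.17, edgeR adjusted p = 1.85e-06). Asns, asparagine synthetase, was at 105, 106 and 108 CPM at day 4 and 44.5, 49.2 and 56.3 CPM at day 5 (-1.08 ± 0.11, edgeR adjusted p = 2.3e-05). Slc7a11, the cystine importer, was at 112, 118 and 116 CPM at day 4 and 54.4, 51.5 and 60.01 CPM at day 5 (-1.06 ± 0.10, edgeR adjusted p = 1.52e-05). Phgdh, which commits carbon to serine, was at 34.5, 33.4 and 34.8 CPM at day 4 and 14, 13.4 and 15.4 CPM at day 5 (-1.27 ± 0.17, edgeR adjusted p = 0.000201). The libraries of a day lay close together for these 4 genes and never overlapped with the other day. Leaving out day 4 replicate 2 brought the lower members to 15, and leaving out day 4 replicate 3 or day 5 replicate 2 to 16, with 0 higher. Of 31 genes of endoplasmic reticulum chaperones and the unfolded protein response 1 was higher and 1 lower (median 0.09). Of 27 heat shock genes 5 were lower and 0 higher (median -0.11; 1 lower without day 4 replicate 2 or 3 or day 5 replicate 2), among them Cct2 of the cytosolic chaperonin at 334, 353 and 339.5 CPM at day 4 and 241, 255 and 257 CPM at day 5 (-0.45 ± 0.07, edgeR adjusted p = 0.00117).

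A large share of absorptive colonocyte genes rose, against 4.24% of all genes. Of 41 tested, 17 were higher and 2 lower (median 0.59), and the list summed to 10328, 9838 and 8835 CPM at day 4 and 13448, 13106 and 12391 CPM at day 5. Lypd8, a secreted protein gene that keeps flagellated bacteria from the epithelium, was at 381, 431 and 259 CPM at day 4 and 1419, 1386 and 1145 CPM at day 5 (1.88 ± 0.14, edgeR adjusted p = 1.09e-06). Krt20, a keratin of surface cells, was at 80.5, 57.7 and 43.2 CPM at day 4 and 189, 158 and 158 CPM at day 5 (1.47 ± 0.16, edgeR adjusted p = 4.29e-05). Slc26a3, the chloride and bicarbonate exchanger of colonocytes, was at 22.8, 22.9 and 12.2 CPM at day 4 and 46.4, 52.2 and 44.8 CPM at day 5 (1.30 ± 0.20, edgeR adjusted p = 0.000702). All 3 were more than 2-fold higher on average, and no day 5 library fell within the day 4 range. Cyp2c55, a cytochrome of colonic epithelium, was at 231, 195 and 92.8 CPM at day 4 and 626, 682 and 496 CPM at day 5 (1.79 ± 0.22, edgeR adjusted p = 8.91e-05), with day 4 replicate 3 the lowest. Ceacam20, an adhesion protein gene of microvilli, was at 59, 46.3 and 38.7 CPM at day 4 and 112, 136 and 115 CPM at day 5 (1.33 ± 0.14, edgeR adjusted p = 2.64e-05). Edn1 (endothelin 1) and the water channel gene Aqp4 went the other way. Aqp4 was at 157, 225 and 235 CPM at day 4 and 34.2, 39.8 and 48 CPM at day 5 (-2.34 ± 0.15, edgeR adjusted p = 2.74e-07), 5.06-fold lower on average.

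Of 45 ion and water transport genes 14 were higher (31.1%) and 4 lower (8.89%), against 4.24% and 4.85% of all genes tested (median 0.27). Slc9a3, the apical sodium and proton exchanger NHE3, was at 2.24, 1.08 and 1.64 CPM at day 4 and 16.3, 11.8 and 13.5 CPM at day 5 (3.05 ± 0.37, edgeR adjusted p = 8.91e-05), from 53 counts over the day 4 libraries to 302 over those of day 5. Atp1b1, the beta subunit of the sodium pump, was at 699, 607 and 526 CPM at day 4 and 1103, 1271 and 1043 CPM at day 5 (0.90 ± 0.10, edgeR adjusted p = 3.98e-05). Car1, a cytosolic carbonic anhydrase, was at 1462, 1622 and 1088 CPM at day 4 and 2394, 2205 and 2257 CPM at day 5 (0.72 ± 0.11, edgeR adjusted p = 0.000555). The day 5 libraries were the higher ones for each gene. Aqp8, the apical water channel of surface colonocytes, had 38 counts over day 4 and 14 over day 5 and was not called (-0.78 ± 0.84, edgeR adjusted p = 0.642). The surface carbonic anhydrase gene Car4 was too low to be tested, with 0 counts over day 4 and 6 over day 5. Of 27 brush border genes 7 were higher and 0 lower (median 0.19). Cdhr5, an intermicrovillar cadherin, was at 243, 202 and 199 CPM at day 4 and 405, 423 and 392.5 CPM at day 5 (0.92 ± 0.09, edgeR adjusted p = 1.28e-05). Ush1c, its scaffold, was at 232, 198 and 201 CPM at day 4 and 299, 299 and 269 CPM at day 5 (0.46 ± 0.09, edgeR adjusted p = 0.00305). Espn, an actin bundler, was at 11.4, 7.86 and 9.36 CPM at day 4 and 19.2, 19.7 and 24.1 CPM at day 5 (1.13 ± 0.23, edgeR adjusted p = 0.00492). Vil1, villin, was at 407, 363 and 375 CPM at day 4 and 404, 476 and 474 CPM at day 5 and was not called (0.24 ± 0.08, edgeR adjusted p = 0.0887), although DESeq2 (adjusted p = 0.0366) and limma voom weights (0.00396) called it, as did the fit without day 5 replicate 1 (0.0103). The number of brush border genes called higher was 3 without day 4 replicate 2 or 3 and 4 without day 5 replicate 2, and 12 with limma voom weights.

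Genes that act on drugs and other foreign compounds were called in either direction: 18 of 50 were higher and 6 lower (median 0.45). Sult1b1, a sulfotransferase, was at 141, 123 and 113 CPM at day 4 and 335, 259.6 and 234 CPM at day 5 (1.13 ± 0.12, edgeR adjusted p = 2.91e-05). Cyp4f14, a lipid hydroxylase, was at 9.78, 11.6 and 8.43 CPM at day 4 and 31.7, 34.1 and 27.6 CPM at day 5 (1.65 ± 0.20, edgeR adjusted p = 8.39e-05). Cyp2d34 was at 131, 102 and 101 CPM at day 4 and 245, 203 and 197 CPM at day 5 (0.95 ± 0.12, edgeR adjusted p = 8.89e-05). The Cyp2d genes are near-identical copies, so single members are uncertain, which also holds for Cyp2d12 (2.45 ± 0.41) and Cyp2d10 (2.08 ± 0.36). Leaving out day 4 replicate 2 brought those called higher to 11, and day 4 replicate 3 to 10. Regulators of intestinal identity and differentiation had 7 of 37 higher and 1 lower (median 0.16), and 2 higher without day 4 replicate 2. Klf4, of terminal differentiation, was at 184, 136 and 164 CPM at day 4 and 242, 217 and 223 CPM at day 5 (0.49 ± 0.10, edgeR adjusted p = 0.0064), a call lost without day 4 replicate 2 (edgeR adjusted p = 0.057). The regulators Cdx2 and Klf5 missed the threshold (-0.21 ± 0.15 and 0.03 ± 0.08, edgeR adjusted p = 0.448 and 0.869).

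Goblet cell genes were called at shares near those of all genes tested. Of 20 goblet cell genes 1 was higher and 1 lower (median 0.11), neither of them a mucus component. Muc2, the gel-forming mucin of goblet cells, was at 8.71, 10.8 and 4.68 CPM at day 4 and 52.5, 5.18 and 5.85 CPM at day 5 and was not called (1.33 ± 0.64, edgeR adjusted p = 0.229). Day 5 replicate 1 alone was high, and without it the change was -0.57 (edgeR adjusted p = 0.347). With no filter on low counts Muc2 was called higher (edgeR adjusted p = 3.92e-05). Of 8 enteroendocrine genes 0 were called by edgeR, and of 7 tuft cell genes 1 was higher, Espn, which brush borders also use.

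Tight junction genes were called about as often as all genes tested (9.09% either way). Of 24 claudins named 23 were in the files, 10 could be tested, 8 were at 0 in all 6 libraries, and 1 was called. That was Cldn4, a sealing claudin, at 227, 199 and 216 CPM at day 4 and 252, 262 and 303 CPM at day 5 (0.35 ± 0.09, edgeR adjusted p = 0.0221), higher at day 5. The call did not hold when library totals replaced TMM factors (edgeR adjusted p = 0.0594), with all 12 libraries in the fit (0.168), or without day 4 replicate 2, day 4 replicate 3, day 5 replicate 2 or day 5 replicate 3 (0.145, 0.0929, 0.0518 and 0.0855). Cldn3 was at 295, 286 and 287 CPM at day 4 and 331, 293 and 332 CPM at day 5 and was not called (0.14 ± 0.08, edgeR adjusted p = 0.327). Cldn7 was at 214, 209.7 and 219 CPM at day 4 and 244, 243 and 268 CPM at day 5 and was not called (0.23 ± 0.08, edgeR adjusted p = 0.0816), although other fits called it higher, among them DESeq2 (adjusted p = 0.042), limma voom weights (0.0237) and the fit without day 5 replicate 1 (0.0496). Both are sealing claudins, and neither was lower at day 5. The pore-forming Cldn2 had 17 counts over day 4 and 12 over day 5, Cldn15, also pore-forming, was at 6.05, 4.15 and 1.87 CPM at day 4 and 1.55, 3.28 and 3.84 CPM at day 5, and Cldn1 had 0 counts.

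Of 49 genes of tight junction scaffolds, polarity and myosin regulation 3 were higher and 1 lower (median 0.08). Tjp1 (ZO-1), the scaffold that ties claudins to actin, was at 798, 738 and 754 CPM at day 4 and 776, 729 and 698 CPM at day 5 (-0.06 ± 0.07, edgeR adjusted p = 0.71). Ocln (occludin) was at 167, 169.9 and 150.2 CPM at day 4 and 198, 201 and 173 CPM at day 5 (0.23 ± 0.09, edgeR adjusted p = 0.13). Cgn (cingulin) was at 457, 453 and 437 CPM at day 4 and 460.3, 457 and 455 CPM at day 5 (0.03 ± 0.07, edgeR adjusted p = 0.867). None of these 3 was called, and only for Ocln were all day 5 values above those of day 4. Mylk, the kinase that activates myosin II and whose activity loosens tight junctions, was the largest change of the list, at 18.5, 15.7 and 19.5 CPM at day 4 and 41.8, 36.5 and 39.3 CPM at day 5 (1.13 ± 0.16, edgeR adjusted p = 0.000393). Its level was 2.18-fold higher on average, in all 3 day 5 libraries, and the mRNA does not show the activity of the kinase. Shroom3, an organiser of apical actin, rose (0.37 ± 0.08, edgeR adjusted p = 0.00568), a call lost without day 4 replicate 2 (0.0599). The junction genes Tjp3 and F11r missed the threshold (0.07 ± 0.08 and 0.20 ± 0.08, edgeR adjusted p = 0.678 and 0.155).

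Of 31 genes of adherens junctions and desmosomes 4 were higher (12.9%, against 4.24% of all genes tested) and 1 lower (median 0.16). Those higher numbered 1 when day 4 replicate 2 was left out, and 2 without day 4 replicate 1 or 3. Epcam was at 1563, 1319 and 1242 CPM at day 4 and 2048, 1931 and 1795 CPM at day 5 (0.49 ± 0.09, edgeR adjusted p = 0.00193). Cdh1 (E-cadherin) was at 1279, 1323 and 1279 CPM at day 4 and 1618, 1501 and 1565 CPM at day 5 (0.27 ± 0.07, edgeR adjusted p = 0.0177), a call lost without day 4 replicate 1, 2 or 3 (edgeR adjusted p = 0.0558, 0.0711 and 0.105). Pkp1, a desmosomal plaque protein gene of stratified epithelium, was the 1 that fell, at 68.2, 98.8 and 85 CPM at day 4 and 39.6, 40.5 and 43.3 CPM at day 5 (-1.03 ± 0.14, edgeR adjusted p = 0.000201). Of the 5 simple epithelial keratins Krt20 rose and the other 4 fell. Krt8 was at 3812, 3721 and 3681 CPM at day 4 and 2967, 2701 and 3080.4 CPM at day 5 (-0.36 ± 0.07, edgeR adjusted p = 0.00314). Krt19 was at 2719, 2852 and 2827 CPM at day 4 and 1915, 1963 and 2256 CPM at day 5 (-0.45 ± 0.07, edgeR adjusted p = 0.000939). These 2 and Krt7 and Krt18 (-0.51 ± 0.08 and -0.44 ± 0.08) were each lower in all 3 day 5 libraries.

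A large share of the genes of epithelial repair and fetal-like epithelium fell, though most did not pass the test. Of 49 tested, 20 were lower and 1 higher (median -0.28). S100a6, a calcium-binding protein gene, was at 1733, 1754 and 1763 CPM at day 4 and 1044, 892 and 1115 CPM at day 5 (-0.78 ± 0.08, edgeR adjusted p = 2.3e-05). Ereg, a ligand of the EGF receptor family, was at 87.6, 96.7 and 89.8 CPM at day 4 and 53.6, 57.9 and 55 CPM at day 5 (-0.72 ± 0.11, edgeR adjusted p = 0.00044). Il33, an alarmin of barrier cells, was at 44.2, 70.2 and 64.6 CPM at day 4 and 16.7, 28.6 and 27.2 CPM at day 5 (-1.28 ± 0.20, edgeR adjusted p = 0.000735). For these 3 genes every day 5 library was below every day 4 library. Ly6a, which encodes Sca-1 and is known from regenerating crypts, was called at a small change (-0.33 ± 0.08, edgeR adjusted p = 0.0206) that did not hold with all 12 libraries in the fit (0.528), with the length trend removed (0.266), or with any 1 library other than day 5 replicate 1 left out (0.0524 to 0.12). Fn1, fibronectin, was the 1 that rose, at 468, 529.8 and 439 CPM at day 4 and 800.2, 842 and 918 CPM at day 5 (0.83 ± 0.08, edgeR adjusted p = 2.04e-05), a call lost with all 12 libraries in the fit (0.124). The number called lower was 12 without day 4 replicate 2 or day 5 replicate 2.

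Stratified epithelium genes had 7 of 29 lower and 2 higher (median -0.59). Krt4, a keratin of stratified epithelium, was at 101, 166 and 161 CPM at day 4 and 7.97, 14.5 and 19.7 CPM at day 5 (-3.32 ± 0.24, edgeR adjusted p = 6.38e-07), 9.96-fold lower on average. Sprr1a, a cornified envelope gene, was at 408, 469.6 and 429 CPM at day 4 and 328, 234 and 282 CPM at day 5 (-0.63 ± 0.11, edgeR adjusted p = 0.00109), a call lost with all 12 libraries in the fit (0.123). Tgm3, a transglutaminase, rose from 3.32, 3.43 and 0.819 CPM to 24.3, 32.8 and 21.4 CPM (3.33 ± 0.36, edgeR adjusted p = 3.11e-05), and Krt84, a hair keratin that is not on the list, also rose (1.91 ± 0.34, edgeR adjusted p = 0.00185). Krt13 and Ivl were not called (-0.97 ± 0.72, edgeR adjusted p = 0.473, and -0.00 ± 0.34, adjusted p = 0.999). Only 2 were called lower when day 4 replicate 2 was left out, and 3 for day 4 replicate 3 or day 5 replicate 2.

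Of 28 genes on the YAP target list 4 were lower (14.3%, against 4.85% of all genes tested) and 0 higher (median -0.01). Of the 4, Wwtr1 and Tead4 are genes of the pathway itself (-0.61 ± 0.11 and -0.69 ± 0.17, edgeR adjusted p = 0.00209 and 0.02). Both calls were lost with all 12 libraries in the fit (edgeR adjusted p = 0.15 and 0.195). Ctgf, a matrix-associated target, was at 544, 815 and 698 CPM at day 4 and 355, 399 and 489.7 CPM at day 5 (-0.73 ± 0.13, edgeR adjusted p = 0.00204), while Cyr61 was not called (-0.36 ± 0.17, edgeR adjusted p = 0.206). Among 21 genes of the EGF receptor family and its ligands, the receptors Erbb2 and Erbb3 rose (0.40 ± 0.08 and 0.41 ± 0.08, edgeR adjusted p = 0.0042 and 0.00353) and 3 genes fell, Ereg with the largest change. The basement membrane and integrin list (33 tested) had 2 higher members, Fn1 and Lama3, a chain of laminin 332, at 398, 403 and 325 CPM at day 4 and 698, 622 and 561 CPM at day 5 (0.74 ± 0.10, edgeR adjusted p = 0.000178), and 4 lower ones (median 0.08). Of 34 genes of matrix proteases and plasminogen 4 were higher and 2 lower (median -0.03). Mmp15, a membrane-bound metalloprotease, was at 365, 313 and 329 CPM at day 4 and 493, 478 and 481 CPM at day 5 (0.53 ± 0.08, edgeR adjusted p = 0.000437), and Serpinb5, a protease inhibitor family member, was at 67.5, 87.9 and 81 CPM at day 4 and 27, 37.3 and 45.3 CPM at day 5 (-1.10 ± 0.16, edgeR adjusted p = 0.000437). Of 46 actin and focal adhesion genes 8 were lower and 1 higher (median -0.16), with Tln2, a talin that links integrins to actin, at 110.5, 137 and 129.6 CPM at day 4 and 50.3, 51.8 and 62.3 CPM at day 5 (-1.20 ± 0.12, edgeR adjusted p = 1.65e-05).

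Antioxidant genes under NRF2 had 15 of 35 lower and 1 higher (median -0.23). Gpx2, the glutathione peroxidase of gut epithelium, was at 116, 131 and 176 CPM at day 4 and 75.8, 57.8 and 64 CPM at day 5 (-1.10 ± 0.15, edgeR adjusted p = 0.000178). Gclc, the rate-limiting enzyme of glutathione synthesis, was at 219, 182 and 207 CPM at day 4 and 128, 135 and 119 CPM at day 5 (-0.67 ± 0.09, edgeR adjusted p = 0.00031). Prdx6, a peroxiredoxin, went the other way, at 1479, 1335 and 1202 CPM at day 4 and 2183, 2213 and 2026 CPM at day 5 (0.68 ± 0.08, edgeR adjusted p = 6.87e-05). The number called lower was 9 without day 4 replicate 2 or 3. Of 46 glycolysis and hypoxia genes 4 were higher (8.7%) and 3 lower (6.52%), against 4.24% and 4.85% of all genes tested (median 0.03). Among those called, Hk2, the first enzyme of glycolysis, was at 482, 423 and 407 CPM at day 4 and 655, 596 and 570.1 CPM at day 5 (0.47 ± 0.08, edgeR adjusted p = 0.0019). Pgk1, further along the pathway, was at 222, 198 and 208 CPM at day 4 and 128, 142 and 155 CPM at day 5 (-0.56 ± 0.09, edgeR adjusted p = 0.00105). Of 70 respiratory chain and ATP synthase genes 3 were lower and 0 higher (median -0.08), a share near that of all genes tested. Of 35 cholesterol synthesis genes 6 were lower (17.1%, against 4.85% of all genes tested) and 0 higher (median -0.16). Those lower numbered 2 without day 4 replicate 3 or day 5 replicate 2, and 10 without day 5 replicate 1. Among the 6, Fdps was at 310.0, 267 and 268 CPM at day 4 and 185, 183 and 225 CPM at day 5 (-0.51 ± 0.10, edgeR adjusted p = 0.00295). Fatty acid oxidation genes had 4 of 44 higher and 2 lower (median -0.04). Of 35 proteasome genes 4 were lower (11.4%, against 4.85% of all genes tested) and 0 higher (median -0.18). Among the 4, Psmd14, a deubiquitinase of the lid, was at 80.8, 92.1 and 91.9 CPM at day 4 and 49.5, 60.5 and 60.8 CPM at day 5 (-0.63 ± 0.12, edgeR adjusted p = 0.00284).

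Many interferon-stimulated and MHC genes were higher at day 5, though most did not pass the test. Of 54 tested, 24 were higher and 0 lower (median 0.67), and they summed to 1893, 1881 and 1843 CPM at day 4 and 3275, 2596 and 2822 CPM at day 5. These genes sense foreign nucleic acids, block viral replication and present peptides, and are switched on through the STAT and IRF factors. Oasl2, of the oligoadenylate synthetase family, was at 3.4, 5.06 and 4.56 CPM at day 4 and 46.6, 32.9 and 34.8 CPM at day 5 (3.13 ± 0.23, edgeR adjusted p = 1.04e-06). Irf7, the factor that amplifies type I interferon, was at 31.4, 22.9 and 19.3 CPM at day 4 and 109.8, 80.4 and 82.9 CPM at day 5 (1.87 ± 0.17, edgeR adjusted p = 9.18e-06). Parp14, an ADP-ribosyltransferase, was at 42.5, 49.2 and 46.7 CPM at day 4 and 139.5, 86.3 and 96.9 CPM at day 5 (1.21 ± 0.15, edgeR adjusted p = 0.000113). Rtp4, a brake on the response, was at 6.63, 8.49 and 10.8 CPM at day 4 and 25.8, 25.8 and 30.3 CPM at day 5 (1.67 ± 0.22, edgeR adjusted p = 0.000201). For these 4 genes every day 5 library exceeded every day 4 library. Ddx60 and Trim30d, which also belong to this response, were at 9.87, 11.6 and 10.1 CPM at day 4 and 80.1, 29.3 and 37.3 CPM at day 5 (2.19 ± 0.30, edgeR adjusted p = 0.000201) and at 3.81, 3.43 and 2.34 CPM at day 4 and 33.8, 12.7 and 16.7 CPM at day 5 (2.68 ± 0.37, edgeR adjusted p = 0.000241).

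Day 5 replicate 1 was the highest library for Oasl2, Irf7, Parp14, Ddx60 and Trim30d. Without it 24 members were called higher and 0 lower, with a median of 0.62. With all 12 libraries in the fit, which adds the spread of the crypts, 12 members were called higher and the median was 0.68. Over the 12 libraries, crypts were at 124 ± 164 CPM of Oasl2 (mean ± SD, n = 3). The leukocyte markers summed to 34.9 to 51.7 CPM at day 4 and 24.5 to 27.1 CPM at day 5, and their part in these counts was not tested.

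The interferon-stimulated response element has a core of 2 GAAA repeats with 2 bases between them. It was in 8 of the 19 called interferon genes with a 300-base window (42.1%), in 20 of all 40 tested members with one (50%) and in 3.62% of all tested genes with one. The windows below are those of the 3 called members of lowest p with a match in the part shown, so they were chosen for the match. They lie on GRCm38.p6 at chr5:120777650-120777909 (Oas3, minus strand), chr3:142530086-142530345 (Gbp7, plus) and chr19:34583279-34583538 (Ifit3, plus), with the match on either strand in capitals.
Oas3: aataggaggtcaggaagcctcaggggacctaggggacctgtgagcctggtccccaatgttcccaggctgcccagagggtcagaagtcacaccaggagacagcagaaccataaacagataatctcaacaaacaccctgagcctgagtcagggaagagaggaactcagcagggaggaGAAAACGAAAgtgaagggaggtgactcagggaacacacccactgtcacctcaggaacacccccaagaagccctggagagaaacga
Gbp7: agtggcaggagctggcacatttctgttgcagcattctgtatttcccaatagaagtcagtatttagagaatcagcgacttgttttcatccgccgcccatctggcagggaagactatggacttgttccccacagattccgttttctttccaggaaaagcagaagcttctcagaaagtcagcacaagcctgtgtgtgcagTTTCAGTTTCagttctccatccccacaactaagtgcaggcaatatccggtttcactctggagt
Ifit3: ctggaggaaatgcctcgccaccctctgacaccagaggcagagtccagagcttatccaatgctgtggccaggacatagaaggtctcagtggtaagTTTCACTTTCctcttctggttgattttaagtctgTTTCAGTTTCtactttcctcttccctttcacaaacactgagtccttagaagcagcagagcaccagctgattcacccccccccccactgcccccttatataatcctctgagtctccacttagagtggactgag

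Oas3, which makes the second messenger of RNase L, was at 4.73, 3.34 and 3.16 CPM at day 4 and 25.1, 10.0 and 20.4 CPM at day 5 (2.27 ± 0.35, edgeR adjusted p = 0.00063). Ifit3, of the family that binds foreign RNA, was at 2.99, 7.49 and 9.13 CPM at day 4 and 42.2, 11.4 and 23.9 CPM at day 5 (1.97 ± 0.43, edgeR adjusted p = 0.00754). Gbp7, a guanylate-binding GTPase gene, was at 2.07, 2.44 and 3.39 CPM at day 4 and 19.2, 8.63 and 6.69 CPM at day 5 (2.12 ± 0.44, edgeR adjusted p = 0.00554). The day 4 libraries of the 3 genes lay below 10 CPM, and day 5 replicate 1 was the highest. The calls of Oas3 and Ifit3 were lost with all 12 libraries in the fit (edgeR adjusted p = 0.0838 and 0.107).

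Other genes of defence were called in both directions. Saa1, an acute phase protein gene of the epithelium, had 51 counts over day 4 and 750 over day 5, at 2.16, 1.53 and 0.936 CPM at day 4 and 25.1, 38.6 and 28.9 CPM at day 5 (4.28 ± 0.30, edgeR adjusted p = 6.38e-07). It was the largest increase among named genes, and Saa genes are near-identical copies. Of 13 antimicrobial and mucosal defence genes 4 were higher (30.8%) and 2 lower (15.4%), against 4.24% and 4.85% of all genes tested (median -0.08). Among the higher ones, Duox2, a hydrogen peroxide producer, was at 16.6, 8.67 and 13.6 CPM at day 4 and 24.9, 36.4 and 22.1 CPM at day 5 (1.11 ± 0.25, edgeR adjusted p = 0.0104). Its call was lost without day 4 replicate 2 or day 5 replicate 2 (edgeR adjusted p = 0.0704 and 0.0933). Of 38 genes of inflammatory signals 3 were higher and 3 lower (median 0.01). Ccl28, a chemokine of mucosal epithelium, was at 38.7, 36 and 26.1 CPM at day 4 and 54, 69.3 and 62 CPM at day 5 (0.88 ± 0.16, edgeR adjusted p = 0.0019). Ptgs2, the inducible prostaglandin synthase, was lower (-0.54 ± 0.12, edgeR adjusted p = 0.0096), a call lost without day 4 replicate 2 or day 5 replicate 2 (0.0954 and 0.062). Of 39 genes of cell death and shedding 5 were higher (12.8%, against 4.24% of all genes tested) and 0 lower (median 0.11). Those higher numbered 1 without day 4 replicate 3 or day 5 replicate 2. Nlrp1b, an inflammasome sensor, was at 1.74, 0.993 and 0.585 CPM at day 4 and 14.2, 8.88 and 6.85 CPM at day 5 (3.11 ± 0.49, edgeR adjusted p = 0.000737), from 37 counts over day 4 to 217 over day 5.

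Calls in the remaining lists lay on both sides of the 9.09% of all genes. Of 55 autophagy and lysosome genes 4 were higher and 1 lower (median 0.11), with Atg9b, of autophagosome growth, at 158, 171 and 175 CPM at day 4 and 224, 225 and 229 CPM at day 5 (0.43 ± 0.08, edgeR adjusted p = 0.00307). Of 20 circadian clock genes 3 were higher and 1 lower (median 0.10), with 0 higher when day 4 replicate 2, day 4 replicate 3 or day 5 replicate 2 was left out. BMP and TGF-beta genes had 2 of 33 higher and 1 lower (median 0.05), and Notch genes 1 of 22 higher and 0 lower (median -0.12). Of 34 immediate early genes 4 were higher and 3 lower (median -0.09). Leaving out day 4 replicate 2 or 3 brought the higher ones to 1, day 5 replicate 2 to 2, and without day 5 replicate 1 there were 5 lower. Fos and Atf3 missed the threshold (-0.18 ± 0.10 and -0.17 ± 0.18, edgeR adjusted p = 0.332 and 0.632), although Atf3 was without day 5 replicate 1 (0.0262). Of 20 abundant noncoding RNAs 1 was higher and 4 lower (median -0.27), with 1 lower when day 4 replicate 2 was left out. Malat1, a long nuclear RNA, rose (0.55 ± 0.10, edgeR adjusted p = 0.00194), while Neat1, another, was at 1354, 1245 and 1201 CPM at day 4 and 1416, 1424 and 1276 CPM at day 5 and was not called (0.12 ± 0.07, edgeR adjusted p = 0.396). Snhg1, a snoRNA host transcript, was at 30.3, 34 and 37.1 CPM at day 4 and 15, 12.9 and 12 CPM at day 5 (-1.35 ± 0.18, edgeR adjusted p = 0.000201).

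Placed beside the other groups on 1 scale over 12 libraries, the genes called were divided in where day 5 stood. Day 5 was nearer to crypts than day 4 was for 291 of the 499 genes called higher (58.3%) and 312 of the 570 called lower (54.7%). These levels are a description, since crypts and day 3 were not tested here. Mki67 went from 419 ± 80.8 CPM at day 3 to 318 ± 73.2 CPM at day 4 and 37.5 ± 5.49 CPM at day 5, with crypts at 959 ± 110.3 CPM (mean ± SD, n = 3 each). Krt4 was at 277 ± 35 CPM, 147 ± 37.2 CPM and 14.6 ± 6.1 CPM on the 3 days and had no count in crypts. Aqp4, in contrast, was highest in crypts, at 765 ± 175 CPM, and at 296 ± 5.43 CPM, 213 ± 43.5 CPM and 42.2 ± 7.16 CPM on the 3 days. Day 5 was the lowest of the 3 days for each of these genes. Krt20 was at 41.3 ± 6.2 CPM, 62.7 ± 19.6 CPM and 175 ± 18.3 CPM and at 1267 ± 341 CPM in crypts. Slc26a3 was at 16.5 ± 4.02 CPM, 20 ± 6.42 CPM and 49.6 ± 4.09 CPM and at 433 ± 38.8 CPM in crypts. Cyp2c55 was at 60.8 ± 10.7 CPM, 179 ± 74.5 CPM and 624 ± 99.7 CPM and at 994 ± 85.1 CPM in crypts. For these 3 genes day 5 was the highest of the 3 days and still below crypts. Fn1 was at 373 ± 8.93 CPM, 496 ± 48 CPM and 885 ± 61.6 CPM on the 3 days, against 16.8 ± 18.5 CPM in crypts, so its day 5 level was the farthest of the 3 days from that of crypts.

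**Figure D5:**
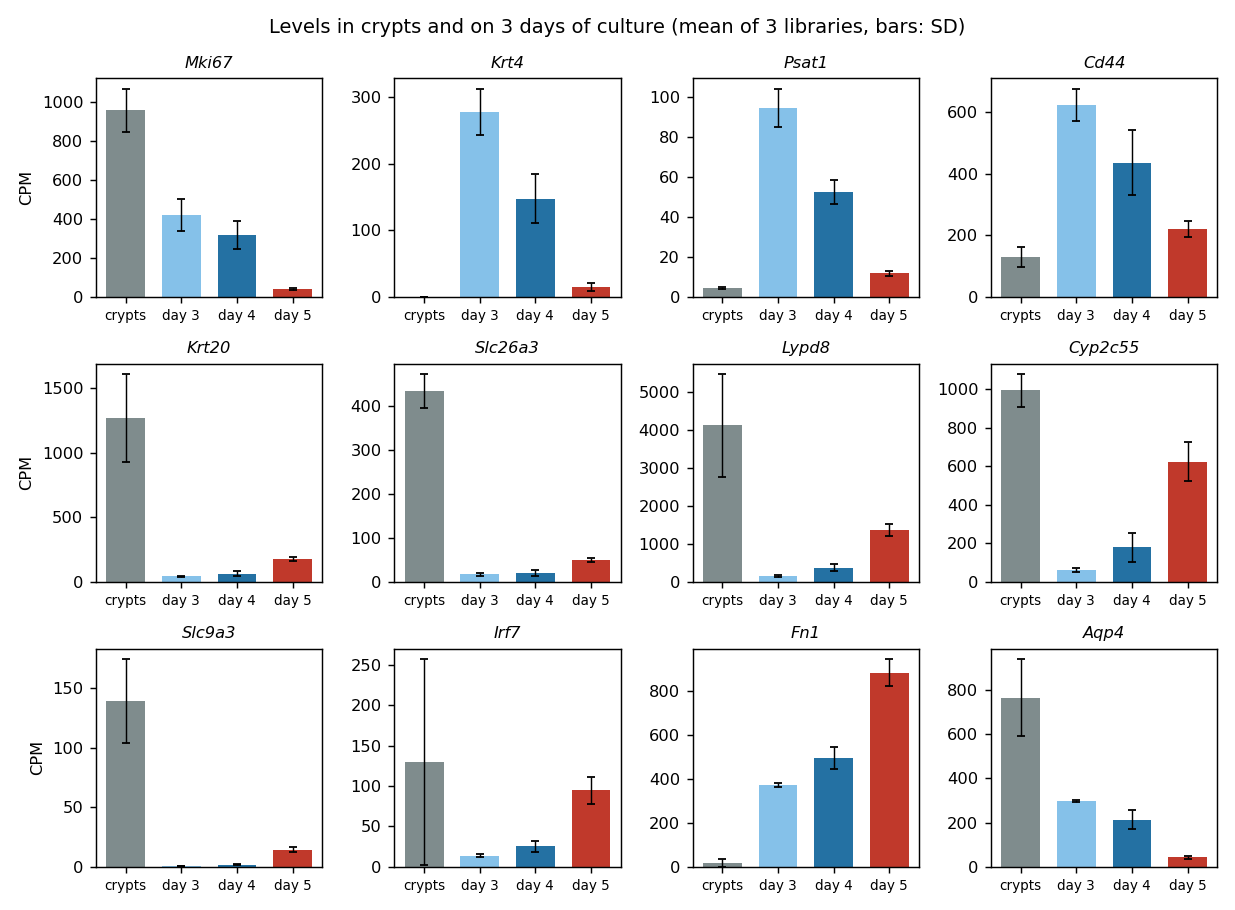
Mean level in CPM of 12 genes in crypts and at days 3, 4 and 5 (bars; error bars are SD of 3 libraries), each panel on its own axis from 0. Mki67, Krt4, Psat1, Cd44 and Aqp4 are lowest of the 3 days at day 5, and Krt20, Slc26a3, Lypd8, Cyp2c55, Slc9a3, Irf7 and Fn1 highest.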

How the data were processed

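The deposited values are raw read counts per gene, which the authors made by alignment and counting. The submitters' processing notes name CASAVA 1.9, TopHat2 and HTSeq and the builds mm9 and mm10 without a role for either, so no gene coordinate comes from the files. The strand setting and annotation version are unknown (not given in the sources used). Rows that name no gene were removed (reads in no gene were 38.7 to 42.8% of reads counted). Genes were kept by filterByExpr (minimum count 10), scaled by TMM and fitted on the 6 libraries with edgeR 4.0.16 (R 4.3.3), group as the only term, quasi-likelihood F test, Benjamini-Hochberg adjustment over 11763 genes. DESeq2 1.42.0, limma 3.58.1 and the other alternatives are in the closing section.

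The members and the 51 gene lists (1991 genes named, 1564 tested) were chosen with earlier results of these data known, and lists overlap. Named genes are the 15 largest called changes each way with a mean of at least 8 CPM and no overlap between days (unnamed gene models and small RNAs passed over), up to 4 called members of each list by p with a mean of at least 1 CPM, and 57 genes chosen whatever their value. Gbp7, and the choice of the 3 interferon promoters, came after values were seen. Transcript length is that of the longest GENCODE transcript of a gene, with older symbols matched through RefSeq synonyms. Promoter windows are from RefSeq on GRCm38.p6, and 9281 of the 11763 tested genes had a window. Tested on simulated counts for this comparison (11595 genes), the fit recovered 37.9%, 64.2% and 83.3% of genes altered by a factor of 1.5, 2 and 4. These were 25 of 66, 43 of 67 and 55 of 66 genes, beside 11 false calls among 11396 unaltered genes. The altered genes had means of at least 1 CPM and were far fewer than the 1069 called in the data. No simulated library stood apart as day 5 replicate 1 did, so these shares may not hold for the data. A floor of 3 counts was 0.245 to 0.55 CPM, and floors cover counting error only.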

Additional observations from a re-analysis of the deposited data

How the results depend on the processing

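No alternative called a gene in the opposite direction to the fit reported. Genes called higher and lower numbered 628 and 655 with DESeq2, 415 and 572 with library totals in place of TMM, 676 and 807 with no filter on low counts, 432 and 540 with all 12 libraries in the fit, 714 and 839 with the 9 monolayer libraries, 490 and 519 with the length trend removed (added after the data were seen), and 809 and 880 with limma voom sample quality weights, where day 5 replicate 1 had a weight of 0.426. Leaving out 1 library gave 230 to 649 higher and 281 to 788 lower. With the replicate block the counts were 577 and 632. The labels do not say that replicate numbers pair the libraries. Same-numbered deviations correlated at 0.0669, -0.00732 and 0.0742, and other pairs at between -0.0924 and 0.0211. Not every library correlated best with its own number, and so few libraries cannot decide on pairing.

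Of the 178 named genes called, 0 reversed, and most losses came without day 4 replicate 2 (56), day 4 replicate 3 (49) or day 5 replicate 2 (45). Signs turned only for genes that were not called. Muc2 was at -0.26 with limma voom weights and between -0.57 (without day 5 replicate 1) and 1.83 (without day 5 replicate 2) with 1 library left out. Neat1 was at -0.0099 with the length trend removed, and Cgn at -0.011 there and at -0.0018 with library totals. Klf5 was at -0.0028 with library totals and between -0.0097 (without day 5 replicate 2) and 0.082 (without day 5 replicate 3) with 1 library left out. Ivl was at 0.0049 with DESeq2, 0.060 with the replicate block, 0.0026 with all 12 libraries, 0.066 with the length trend removed, and 0.37, 0.088 and 0.076 without day 4 replicate 2, day 5 replicate 2 and day 5 replicate 3, against -0.29 without day 4 replicate 1. With 3 libraries a day, power is limited for small changes, and low genes such as Ccnb1 rest on few counts at day 5.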

Other observations

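Some gene families, a few of whose members are also in the lists, were grouped by name after their values were seen, so these counts describe and test nothing. Among factors that start and extend translation, 14 of 57 initiation factor genes were lower and 2 higher (median -0.18), and 4 of 7 elongation factor genes were lower. Of the 8 subunits of the cytosolic chaperonin 5 were lower, and of 17 genes of one-carbon and serine synthesis 7 were lower (median -0.52). Mitochondrial ribosomal proteins had 4 of 75 lower and 0 higher (median -0.22). Tubulin genes had 4 of 10 lower.

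Genes of iron handling split. Slc11a2 (DMT1), the apical iron importer, was at 409, 295 and 220.0 CPM at day 4 and 999.7, 1316 and 969 CPM at day 5 (1.83 ± 0.17, edgeR adjusted p = 9.18e-06). Slc40a1, ferroportin, the iron exporter, also rose (0.94 ± 0.12, edgeR adjusted p = 0.000178). The ferritin light chain gene Ftl1 and Hmox1, which frees iron from heme, fell (-0.59 ± 0.11, edgeR adjusted p = 0.00185, and -0.67 ± 0.13, edgeR adjusted p = 0.00411). Of 3 metallothionein genes 2 fell, with Mt2, a metal-binding protein gene, at 14.9, 15.4 and 19.7 CPM at day 4 and 4.66, 5.26 and 5.18 CPM at day 5 (-1.72 ± 0.26, edgeR adjusted p = 0.000607).

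Butyrophilin-like genes, whose products are known to hold intraepithelial gamma delta T cells in the gut, had 3 of 4 higher, Btnl4, Btnl5 and Btnl6 (median 1.64). Of 10 MHC class I genes 7 were higher (median 0.77), and of 7 Cyp2d genes 5. Members of these families are near-identical copies, so reads may have been split or lost between them.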
